A study of Mus musculus with 2 samples.

Results

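The replication-dependent histone genes encode the core histones H2A, H2B, H3 and H4 and the linker histone H1 that package newly copied DNA. They were taken as the genes of the deposited gene table whose symbol follows the clustered histone nomenclature (H1f1 to H1f5, H2ac, H2bc, H3c and H4c followed by a number, or the older Hist1h to Hist4h names). This gave 44 of the 4494 protein-coding genes with a named peak. The peak list holds 2 runs through the chromosomes of 17990 peaks each, called passes here, and 50 peaks of the first pass and 53 of the second carried the names of members, 103 in all. Of the members, 38 lie on chromosome 13 and 6 on chromosome 3.

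Most mRNAs of these genes have no intron and no poly(A) tail. Their 3′ end is a stem-loop that the protein Slbp binds, and the U7 snRNP directs cleavage a few bases downstream of it. They accumulate in S phase, when DNA is replicated. Usp39, the protein pulled down here, belongs to the tri-snRNP of the spliceosome, so these genes form a group of mostly unspliced transcripts within a screen for RNA bound to a splicing factor.

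The measurement was RNA immunoprecipitation with sequencing (RIP-seq) in the mouse hepatocyte line AML12, made to carry doxycycline-inducible FLAG-Usp39. Both groups came from cells given doxycycline for 72 h and cross-linked with paraformaldehyde for 5 min. For the IP group, RNA was recovered on magnetic anti-FLAG beads, and the Input group was taken without antibody. Each group had 1 library, sequenced as paired reads of 150 bases. The bait was the induced, tagged protein and not the endogenous Usp39. The methods place the cross-linking on isolated nuclear pellets, whereas the labels speak of cross-linked cells.

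The deposited result is a single peak list without IP or Input columns, so no level in the IP library and in the Input library can be set side by side, and the depth of the 2 libraries is unknown here. The columns do not say what distinguishes the 2 passes of the list. A peak is 1 bin of 100 bases or several joined bins, and its p-value is the one deposited. In joined peaks that were checked, this value equals the mean of single-bin values of the list. The first-pass peak of H4c4 has 0.00039, the mean of 0.000736 and 4.29e-05. A joined value is therefore not a p for all reads of the peak, and 1 weak bin can set it. The deposited series holds 1 library per group, although the study states that its RIP-seq samples came from several independent experiments, and the list does not separate them. The intervals given here are exact Clopper-Pearson 95% intervals and cover counting error only. Among 12 hepatocyte markers only the keratins Krt18 (16 peaks) and Krt8 (14 peaks) had a named peak, and defining products such as Alb and Apoa1 had none. Among 10 markers of other cell types, Cd68 had 2 named peaks, but no peak overlapped any of the 10 genes.

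The stem-loop that defines this class of mRNA was read from the reference genome for each gene, because it is the one element that all members should share and because several peaks reached it. RefSeq (GRCm38.p6) holds 62 protein-coding genes that follow the same nomenclature. The search covered 300 bases after the stop codon for GGNNNNTTNNNNNNCC on the transcribed strand, with all 6 base pairs of the stem formed (G-T pairs allowed). It was found in 58 of the 62 genes, between 21 and 58 bases after the stop codon (median 30.5). The same search found it in 42 of 21707 other protein-coding genes (0.193%). In the sequences below the 16 bases of the stem-loop are in capitals.

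H4c3 (chr13:23698089-23698104, minus strand): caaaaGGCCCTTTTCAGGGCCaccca
H4c9 (chr13:22040966-22040981, minus strand): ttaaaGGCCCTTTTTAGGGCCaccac
H4c11 (chr13:21735437-21735452, plus strand): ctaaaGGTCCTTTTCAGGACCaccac
H1f4 (chr13:23621782-23621797, minus strand): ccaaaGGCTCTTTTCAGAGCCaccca
H3c4 (chr13:23576244-23576259, plus strand): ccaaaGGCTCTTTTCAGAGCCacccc
H2bc12 (chr13:22036300-22036315, plus strand): ccaaaGGCTCTTTTAAGAGCCactaa
H2ac20 (chr3:96220418-96220433, minus strand): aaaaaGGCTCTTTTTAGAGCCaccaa

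These 7 genes show the 6 forms that occurred. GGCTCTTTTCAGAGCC was the form of 38 H1, H2A, H2B and H3 genes, of which 28 were overlapped by a peak. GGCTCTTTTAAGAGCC was the form of 8 genes, of which 4 were overlapped. All 11 H4 genes with a stem-loop had another stem: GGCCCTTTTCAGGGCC in 7 genes, all overlapped, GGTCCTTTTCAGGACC in 2 genes, both overlapped, and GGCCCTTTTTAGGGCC in 2 genes, of which 1 was overlapped. No perfect match stood in the searched window of H2ac22, H3c8, H4c1 and H2bc21, which says only that these letters were not there.

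The first question was how much of the family the peak list covered. Of the 62 annotated genes, 44 had a named peak (71.0%, 58.1 to 81.8%), against 20.6% of all 21787 protein-coding genes. By position, 45 of the 62 genes were overlapped by at least 1 base of a peak (72.6%, 59.8 to 83.2%), against 18.8% of all protein-coding genes. Histone mRNAs are short, and each of the 62 genes has a single-exon RefSeq transcript. RefSeq also lists spliced transcripts for 4 of them (H2bc4, H2bc6, H2bc22 and H2bc23), which were chosen after their values were seen. All 4 were overlapped, and all 6 peaks within their spans lay over the single-exon transcript. Of the 58 genes with no spliced transcript, 41 were overlapped. The genes were also set beside the 1052 other single-exon coding genes left after removing receptors of smell, pheromones and taste. Of those, 5.23% were overlapped by a peak, and of the 404 with a length up to 1000 bases, 4 were overlapped (0.99%). Neither these genes nor all protein-coding genes were matched to the histone genes for expression in AML12 cells. The part of expression in these differences was not tested. The libraries are bulk, so how many cells held a histone mRNA and how much of it each cell held cannot be told apart.

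All classes were represented. Peaks overlapped 11 of 12 H4 genes (91.7%, 61.5 to 99.8%), 13 of 17 H2A genes (76.5%, 50.1 to 93.2%) and 9 of 12 H3 genes (75.0%, 42.8 to 94.5%). They overlapped 3 of 5 H1 genes (14.7 to 94.7%) and 9 of 16 H2B genes (56.3%, 29.9 to 80.3%). The intervals of the 5 classes overlap one another, so no order among the classes can be read from these counts. The lower bound lay above 18.8%, the share of all protein-coding genes, in every class but H1. Close copies can receive each other's reads and are not independent counts. The intervals of the classes and of the whole family are therefore narrower than the data warrant.

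**Figure D1:**
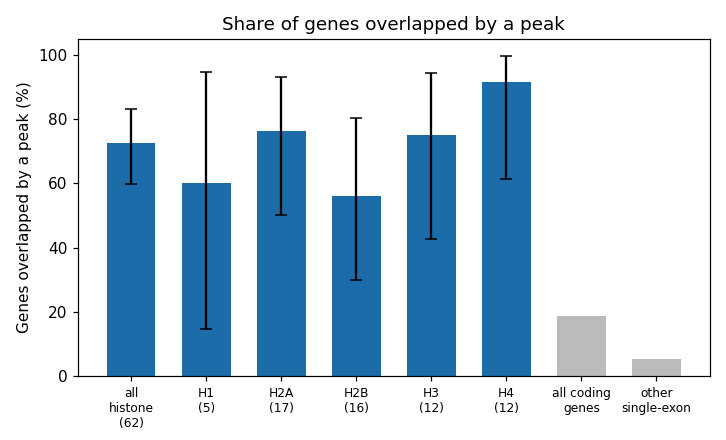
Share of annotated genes overlapped by a peak (%) for all 62 histone genes and for each class (number of genes in brackets), with exact 95% intervals, beside 18.8% of all coding genes and 5.23% of other single-exon coding genes. H4 stands at 91.7% and H2B at 56.3%, and the intervals of the classes overlap.

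The family lies in 3 blocks. In the left block of chromosome 13 (chr13:21715711-22043658) 19 of 22 genes were overlapped, in the right block (chr13:23531044-23934913) 19 of 30, and on chromosome 3 (chr3:96219885-96270192) 7 of 10. The 17 genes without a peak were H1f1 and H1f5 of H1, 4 of H2A (H2ac1, H2ac15, H2ac21 and H2ac6), 7 of H2B (among them H2bc1, H2bc14, H2bc21 and H2bc3), 3 of H3 (H3c1, H3c3 and H3c8) and H4c14. H2ac1 and H2bc1 encode the testis forms of H2A and H2B, and they form the only divergent H2A-H2B pair in which neither gene was overlapped. H2A and H2B genes often stand head to head: 11 such pairs had their start sites 164 to 281 bases apart. Both genes were overlapped in 5 pairs, only the H2A gene in 3 and only the H2B gene in 2.

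Outside the nomenclature rule, RefSeq holds 5 more genes that once carried a clustered histone name. H4f16, a single H4 gene on chromosome 6, had 2 peaks, with a smallest p of 7.61e-07. H4bc24, an H2B gene despite its symbol, was overlapped by 2 peaks that carry the name H2bc23. H1f6, the testis-specific linker histone, H2aw and H2bu2 had none.

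The number of named peaks per gene was low. Of the 44 members 14 had 1 peak, 21 had 2 and 9 had 3 or more, with a median of 2 against 3 for the other genes of the table. Of the members, 30 had 2 or more peaks, against 73.8% of all genes of the table. The most were named for H4c17 (13 peaks), H2bc15 (7) and H2bc23 (5). H1f2, H1f3, H2ac23 and H3c14 had 4 each, and H3c6 and H4c4 had 3 each. With 2 peaks each stood H1f4, H2ac7, H2ac12, H2ac13, H2ac18, H2ac20, H2ac22, H2bc18, H3c2, H3c4, H3c7, H3c10, H3c11, H3c13, H3c15, H4c1, H4c3, H4c6, H4c8, H4c9 and H4c18. With 1 peak each stood H1f5, H2ac4, H2ac8, H2ac10, H2ac11, H2bc4, H2bc11, H2bc12, H2bc13, H2bc14, H2bc22, H4c2, H4c11 and H4c12.

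The name of a peak did not always give the gene that held it. Of the 103 peaks, 75 overlapped the gene they were named for (72.8%, 63.2 to 81.1%), close to the 73.6% of all peaks in the list. Another 9 lay in a different histone gene, 1 lay in a histone pseudogene and 18 lay in no annotated gene. The 9 were the peaks over H2ac19 (named H2ac18), over H2ac18 (named H3c14), over H2ac24 (named H2ac23) and over H4bc24 (named H2bc23), 2 each, and 1 over H2bc6 (named H4c4). H1f5 and H2bc14 were the 2 members with no peak over their own body: the peak named H1f5 lay in no gene, and the one named H2bc14 lay in the pseudogene H2ac14. H2ac19, H2ac24 and H2bc6 were overlapped although no peak bore their name.

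The 18 peaks outside genes formed 2 groups on chromosome 13, and they account for most peaks of the 2 members with the highest counts. The first group (chr13:21763801-21767800, 7 peaks named for H2bc15 and H1f5) lay 9248 bases from the nearest histone transcript. All bases of its sites were repeat-masked in the reference, and its smallest p was 8.98e-06. The second group (chr13:21814801-21819100, 11 peaks named for H4c17) lay 2651 bases from H4c17 and was repeat-masked over 47.1% of its bases. It held the widest peak of the family, 700 bases at chr13:21818401-21819100 with a p of 2.82e-05. It also held a single-bin peak with a p of 1.18e-10 at chr13:21815201-21815300 in the second pass. In the first pass the same bin had a p of 0.000736, the weakest value of the list, and all its bases were repeat-masked. Of the 13 peaks named for H4c17 only 2 lay in the gene, with a p of 0.000188 and 9.08e-05, and of the 7 named for H2bc15 only 1, with a p of 3.99e-06.

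Histone peaks had smaller p-values than the list as a whole. The median −log10 p of the 103 peaks was 4.04 (order-statistic 95% interval 3.86 to 4.55), against 3.68 for all peaks. A p of 1e-05 or less was given to 30 of the 103 (29.1%, 20.6 to 38.9%), against 14.4% of all peaks. They were also wider: 49 of 103 spanned more than 1 bin (47.6%, 37.6 to 57.7%), against 21.5% of all peaks. Joined peaks carry averaged values, so single-bin peaks were also set side by side alone. Their median −log10 p was 4.37 in the family against 3.42 in the whole list. A p of 1e-05 or less was given to 33.3% of them in the family against 13.25% in the whole list. The 84 peaks that lay over a histone gene had a median −log10 p of 4.25, and the 18 outside genes had 3.68. The 165 peaks over other single-exon coding genes had a median of 3.72, and 19.4% of them had a p of 1e-05 or less. Peaks of neighbouring bins and of the 2 passes are not independent of each other, so these intervals are narrower than the data warrant.

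By class, the median −log10 p over the transcripts was 4.53 for H2A (22 peaks), 4.43 for H1 (10 peaks), 4.37 for H2B (12 peaks), 4.04 for H4 (19 peaks) and 3.73 for H3 (19 peaks). The intervals of these medians overlap, and the medians mix single-bin values with the averaged values of joined peaks. The p-values come in steps: the single-bin peaks of the whole list took only 35 different values, and 0.000736 was the weakest.

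**Figure D2:**
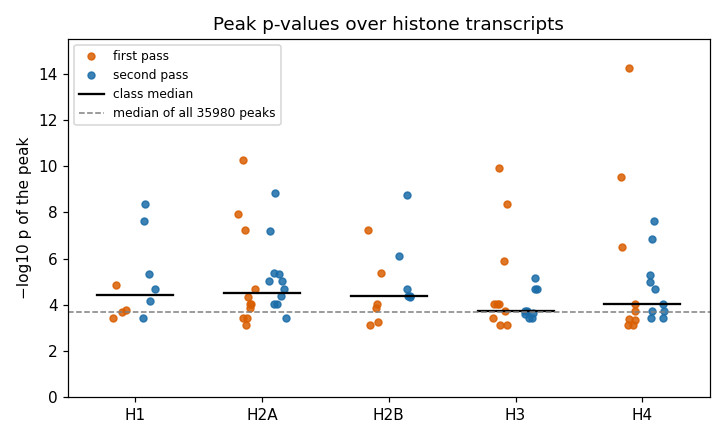
−log10 p of the 82 peaks over histone transcripts, by class and by pass of the list, with the class median (line) and the median of all peaks, 3.68 (dashed). Single peaks of H4, H2A and H3 genes reach about 10 or more, while the class medians run from 3.73 to 4.53.

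The smallest p of the family was that of H4c3. Its first-pass peak, chr13:23698101-23698200, had a p of 5.69e-15, and its second-pass peak covered the same bin and the next one with a p of 0.000188. Both reached the first bases of the stem-loop printed above for H4c3. The bin of the first-pass peak shared at most 41 bases with any other place in the genome. The smallest p of any peak in the list was 5.24e-15.

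Next came H2ac19, an H2A gene on chromosome 3, with a p of 5.53e-11 at chr3:96239801-96240100 in the first pass and 1.43e-09 in the second. H2ac18, its near-identical neighbour on the other strand, had a p of 1.16e-08 and 6.58e-08. H3c4 had a p of 1.18e-10 at chr13:23575801-23575900 in the first pass and 0.000234 in the second. H4c8 had a p of 2.92e-10 in the first pass and 5.37e-06 in the second. The first-pass bin of H3c4 recurs in full at 2 other places, whereas that of H4c8 shares at most 38 bases with any other place. For H4c3, H3c4 and H4c8 a single-bin p of the first pass stands beside an averaged p of joined bins in the second. The second-pass average of H3c4 equals the mean of 0.000377 and 9.08e-05, and that of H4c8 the mean of 8.98e-06 and 1.75e-06. These values occur elsewhere in the list, but which bin held which is not given. If the averages were formed this way, the shared bin had a larger p in the second pass in both genes. For H4c3 the second-pass value of the shared bin cannot be read.

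The other genes with a small p came from every core class. Among H4 genes, H4c1 had a p of 9.08e-05 in the first pass and 2.47e-08 in the second over the same bin, which recurs in full at 6 other places of the genome. H4c6 had 0.000462 and 1.39e-07 in this order, and H4c18 had 3.26e-07 and 9.95e-06. Among H3 genes, H3c7 had 4.24e-09 in the first pass and 0.000377 in the second, and H3c14 had 1.33e-06 and 2.15e-05. No pass gave the smaller p throughout. Among H2A genes, H2ac13 had 5.88e-08 in the first pass and 0.000377 in the second. Among H2B genes, H2bc11 had a single peak, in the second pass, with a p of 1.75e-09, and H2bc22 a single one in the first with 5.88e-08. The smallest-p peaks of H2bc22, H2bc11 and H2ac13 recur in full at 9, 6 and 5 other places of the genome. Those of H4c18 and H3c14 recur at 1 other place each, whereas those of H4c6 and H3c7 do not recur in full. H4c11 and H2bc6, each with 1 first-pass peak, stood at the weakest value of the list, 0.000736.

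The linker histone genes, which are longer, carried the widest peaks over a gene. H1f4 had a 600-base peak at chr13:23621801-23622400 in both passes, with a p of 0.000162 in the first and 6.79e-05 in the second, and these bins covered 76.7% of its transcript. H1f2 had a 500-base peak in the first pass (p of 0.000197) and 3 single-bin peaks in the second, with a p of 4.24e-09, 1.99e-05 and 2.47e-08. Together these covered 81.9% of the transcript, the highest share in the family. H1f3 had 4 peaks over 73.3% of its transcript, with a smallest p of 4.49e-06. Over all 45 overlapped genes the covered share ran from 17.9% to 81.9%, with a median of 41.4%. It was 21.9% for H2B genes and 49.4% for H4 genes.

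The positions of the peaks were then set against the gene models. None of the 103 was classed as intronic in the deposited annotation, against 41.5% of all peaks, and 58 were classed as exonic (56.3%, against 24.0% of all peaks). Most of these genes have no annotated intron, so both differences follow largely from the gene models. All 46 sites formed by joining touching peaks over a gene overlapped coding sequence, and only H3c6 had more than 1 site. The class median of coding length ran from 312 bases (H4) to 660 bases (H1), and that of transcript length from 405.5 to 776 bases. Coding sequence thus fills most of these transcripts, and a bin of 100 bases could hardly miss it. Of the 82 peaks over transcripts, 22 had their midpoint in the first 33.3% of the transcript, 43 in the middle 33.3% and 17 in the last 33.3%. Of the 78 peaks over genes with a stem-loop, 8 touched it (10.3%), in 7 genes: H4c3, H4c6, H4c9, H4c18, H2ac12, H2ac24 and H3c6. The median distance from a peak to the stem-loop was 154 bases.

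**Figure D3:**
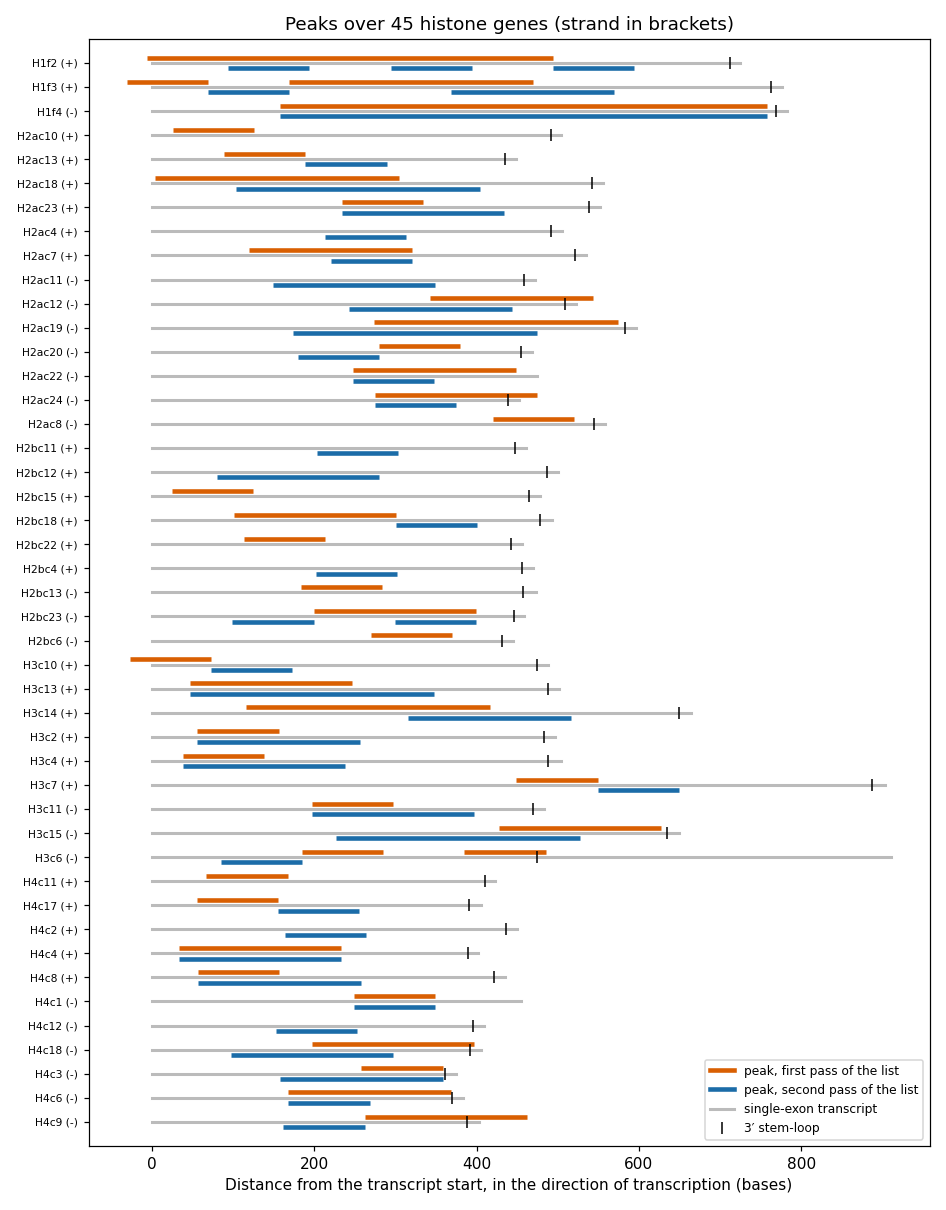
Peaks of the first pass (orange) and of the second pass (blue) along the single-exon transcripts (grey) of the 45 overlapped histone genes, in bases from the transcript start, with the stem-loop as a black tick and the strand in brackets. Peaks sit mostly over the middle of the transcript and reach the stem-loop in 7 genes, all on the minus strand.

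Where the peaks lay depended on the strand of the gene and the pass of the list. In plus-strand genes the first-pass midpoints stood at a median of 29.2% of the transcript (21 peaks) and the second-pass midpoints at 48.9% (24 peaks). In minus-strand genes they stood at 71.1% (19 peaks) and 57.4% (18 peaks). First-pass peaks therefore lay to the left on the chromosome whichever way the gene was read. Where a first-pass peak had exactly 1 second-pass peak within 200 bases, the second lay to the right in 25 of 29 pairs over histone genes and to the left in 1. The same held for 75.1% of 9850 pairs in the whole list, with a median shift of 100 bases for genes on either strand. All 8 contacts with a stem-loop were in minus-strand genes, and 7 of them were first-pass peaks. A position relative to the 3′ end read from 1 pass alone would thus differ between the strands.

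**Figure D4:**
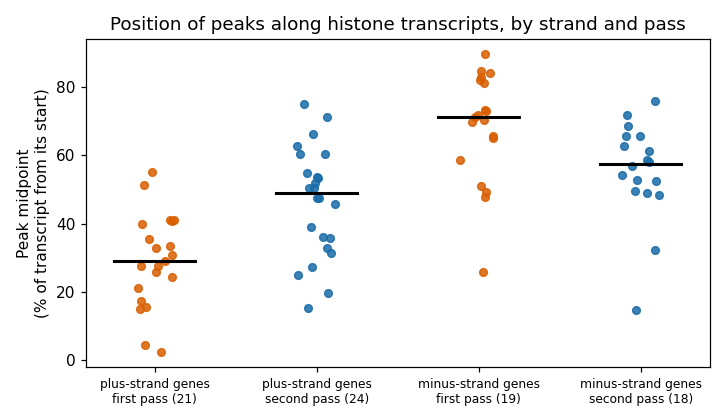
Midpoint of each peak over a histone transcript as a percentage of the transcript from its start, by gene strand and pass (number of peaks in brackets), with the median as a line. The first-pass median is 29.2% in plus-strand genes and 71.1% in minus-strand genes.

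The passes largely named the same genes. Of the 45 overlapped genes 31 had peaks of both passes (68.9%), 7 of the first alone and 7 of the second alone, while in other single-exon genes 28 of 55 overlapped genes had both (50.9%). All 9 overlapped H3 genes and all 3 overlapped H1 genes had both. Only 2 of 9 H2B genes did, H2bc18 and H2bc23.

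Histone genes of a class are close copies of each other, so reads from one gene can be placed on another. The 12 H4 genes encode 1 protein and the 12 H3 genes encode 2, while coding sequences of equal length were identical at a median of 94.7% of bases for H4 and 97.2% for H3. The 17 H2A genes encode 8 proteins and the 16 H2B genes 10, and the 5 H1 genes all differ. In 48 of the 62 genes a stretch of 150 bases or more, the length of a read, occurred base for base elsewhere in the genome. All 459 bases of H2bc23 recur in H4bc24, all 552 of H2ac23 in and beside H2ac24, whose transcript is shorter (452 bases), and all 664 of H3c14 around H3c15. Of the 82 peaks, 44 had their whole sequence at another place too (53.7%), and 30 of the 45 genes had such a peak. Peaks in these copies count as uncertain, since the sources used here do not say how reads with several equally good places were treated.

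This sharing moved with the calls. The longest exact match had a median of 288 bases in the 45 genes with a peak and 179 bases in the 17 without. Peaks overlapped 39 of the 48 genes that shared at least 150 bases and 6 of the 14 that did not. Its part in the result was not tested. The 6 genes were H1f2, H1f3, H1f4, H2ac20, H2bc18 and H4c4, whose longest matches ran from 44 bases for H2bc18 to 149 bases for H1f2 and H1f3. H2bc18 had 2 peaks, with a p of 0.000557 and 4.29e-05, and the H4 gene H4f16, which shared at most 32 bases, had its 2 peaks as well. Transcripts with a peak had a median GC content of 61.4% and those without 59.3%, and their median lengths were 478 and 487 bases.

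**Figure D5:**
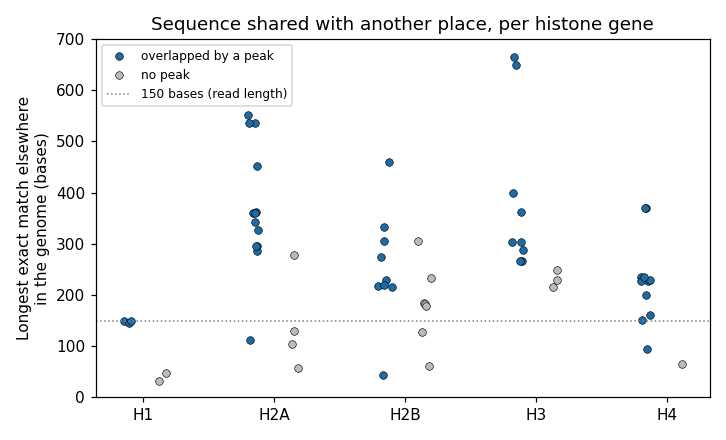
Longest stretch of each histone gene found base for base elsewhere in the genome (bases), for genes overlapped by a peak (blue) and genes without (grey), by class; the dotted line is the read length of 150 bases. The medians are 288 bases with a peak and 179 without, and H2bc18 and H4c4 have a peak at 44 and 95 bases.

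The hexamers GGCCAC and GCCATA, taken from the study's motif analysis, were searched in the 46 single-bin peaks over histone transcripts. The study derived these words from its Usp39 peaks, histone peaks included, so the counts below are no independent support for them. Both contain GCCA, so they overlap in letters. The word GGCCAC stood on the transcribed strand in 5 (10.9%, 3.63 to 23.6%), against 3.42% of 21213 single-bin peaks within their named gene, and on either strand in 15.2% against 6.69%. GCCATA stood in 0 of 46 on either strand, which allows a share of up to 6.52% by a limit of 3 counts (exact upper bound 7.71%), against 1.45% of the larger set on the transcribed strand and 2.98% on either strand. Many of the 46 share sequence, and the part of base composition was not tested.

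Lists of genes whose products make, carry or replace these histones were set beside the 20.6% of all protein-coding genes with a named peak. The intervals of the processing and chaperone lists include that share. Of 18 genes of histone mRNA processing and decay, 2 had a named peak (11.1%, 1.38 to 34.7%): Srrt, which links the cap complex to 3′-end formation, with 8, and Sympk, a scaffold of the cleavage complex, with 1. Casp8ap2 and Cpsf2 had none, nor had Slbp, which was picked out for its role. Upf1, a helicase of histone mRNA decay, was overlapped by 6 peaks but named by none, and was also chosen after its values were seen. Of 16 histone chaperone genes 6 had one (37.5%, 15.2 to 64.6%), led by Atrx (24), Npm1 (5), Set (2) and Daxx (1), while Asf1a and Asf1b had none. These are counts of named peaks, and Atrx itself was overlapped by 15 peaks.

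Of 12 replication-independent histone genes, whose mRNAs are mostly polyadenylated and made throughout the cell cycle, 6 had a named peak (21.1 to 78.9%). The 12 include H2bu2, named above for its older clustered histone name, which has the stem-loop and counts here as a gene without a peak. Macroh2a1 had 19, H3f3b, which encodes the variant H3.3, had 8, and H3f3a and H2aj had 4 each. H2aj itself was overlapped by 2 peaks. The smallest p over H3f3a was 1.26e-12. Cenpa and H1f10 had none. Of 19 S-phase genes only Cdc6 had a named peak (5.26%, 0.133 to 26.0%), and that peak lay outside the gene. Mcm7 was the one S-phase gene overlapped by a peak (p of 0.000377). Ccna2 and Ccne1 had none. The 20.6% of all protein-coding genes lies within the S-phase interval and just below the interval of the replication-independent histones. The intervals of the lists overlap one another.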

How the data were processed

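RNA from 1 IP and 1 Input library of AML12 cells was sequenced by the authors. Per the labels and the study's methods, reads were trimmed with Trim Galore 0.6.1, checked with FastQC 0.11.9, cleared of rRNA with Bowtie 1.2.3 and aligned to mm10 with HISAT2. Peaks were called with Piranha in bins of 100 bases at a p limit of 0.001 and given gene names with clusterProfiler. HOMER was used for motifs. How the Input entered the calling was not given in the sources at hand. The p-value of each peak was used as deposited, which for joined bins can be a mean of bin values, and positions are those of mm10. Read files were not used here.

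Peaks were intersected with RefSeq GRCm38.p6 gene models, whose chromosomes match mm10 in length, using Python 3.11.15, numpy 2.4.6, pandas 2.3.3 and scipy 1.17.1. Each of the 62 annotated genes has 1 single-exon RefSeq transcript, which was used for positions. Exact matches were found with a search of all chromosomes on both strands. The overlap, interval, stem-loop and repeat searches were tested on simulated data. With 1 library per group no test between IP and Input was run.

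The members, gene lists and comparisons were chosen with earlier results of these data known. All members are named with their number of peaks. Those with the most peaks, the smallest p or the widest peak are described peak by peak. Up to 4 genes a class without a peak are named, and each list gives up to 4 genes, by number of peaks, and up to 2 that had none, first by symbol. Alternatives were the p limit, 2 peaks per gene, each pass alone, position in place of name, the overlap required, the gene body used, joined peaks, single-bin peaks and equal weight per gene.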

Additional observations from a re-analysis of the deposited data

How the results depend on the processing

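Of 30 alternative settings, 26 gave a value within the 95% interval of the reported one and 4 did not. With only peaks of p at 1e-05 or less, 35.5% of the 62 histone genes had a named peak and 35.5% were overlapped (22 genes in both counts), against 7.17% and 6.25% of all protein-coding genes under the same limit. With at least 2 peaks required, 48.4% of the 62 genes were counted, against 15.2% of all protein-coding genes. At a p of 1e-07 or less, 14.6% of the 103 histone peaks passed, against 4.78% of all peaks. Either pass alone, other overlaps, wider gene bodies, coding sequence alone, joined peaks and single-bin peaks left their results inside the interval. These settings reuse the same peaks, so they are weak checks. The wider gene body, the larger overlap and coding sequence alone left their counts unchanged (75 of 103 peaks or 45 of 62 genes). No paired analysis was possible because each group had 1 library and the peak list has no sample columns. With 1 deposited library per group and no Input values or read counts per peak in the files used here, the data limit all statements to the presence and rank of peaks, and near-identical copies limit which gene a peak belongs to.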
